A study of Mus musculus with 9 samples.

Results

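Adipocytes sense metabolites and hormones through a small set of receptors at the cell surface, and 10 genes encoding such receptors were followed here through beige differentiation. They are the fatty acid receptor genes Ffar4 and Ffar2, the lactate and ketone body receptor genes Hcar1 and Hcar2, the succinate receptor gene Sucnr1, the adenosine receptor genes Adora1 and Adora2a, the natriuretic peptide receptor genes Npr1 and Npr3, and the incretin receptor gene Gipr. Members were found by symbol in the table of raw counts, where each of the 10 stood once among 55359 genes, and all 10 were among the 14649 genes with enough counts to be tested.

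RNA was sequenced from mouse adipocyte precursors of inguinal white adipose tissue (iWAT), a subcutaneous fat depot, in 9 libraries. Of these, 3 came from non-induced cells (day 0), 3 from cells at day 4 and 3 from cells at day 8 of differentiation. The induction medium held dexamethasone, 3-isobutyl-1-methylxanthine (IBMX, a phosphodiesterase inhibitor), indomethacin, insulin, triiodothyronine and the PPARγ agonist rosiglitazone. From 2 days on, dexamethasone, IBMX and indomethacin were left out, so insulin, triiodothyronine and rosiglitazone are the shared agents of the day 4 and day 8 cells, and day 0 cells had none of these treatments. All 9 libraries carry the same cell type label, so maturation of the cells and exposure to the medium cannot be told apart. Strain, genotype, sex, age and the number of animals are not given in the sources used here. The labels do not say whether replicates were separate cultures or animals, so a p-value here reflects only how far these libraries differ from each other, which may be technical.

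Most of these receptors couple to heterotrimeric G proteins. Those for lactate, ketone bodies, short-chain fatty acids and, through its A1 type, adenosine signal through Gi, which restrains adenylyl cyclase, lowers cAMP and in fat cells slows lipolysis, the release of fatty acids from stored triglyceride. The adenosine receptor ADORA2A and the GIP receptor couple to Gs and raise cAMP. Natriuretic peptide receptors are built differently: NPR1 is itself a guanylyl cyclase that makes cGMP, which promotes lipolysis in human fat cells, and NPR3 takes natriuretic peptides up for degradation.

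Total counts per library ranged from 26387408 to 31474490. Levels are given as CPM, counts per 1e+06 of a library's TMM-scaled total, and 3 counts, the floor used for a gene with no count, corresponded to 0.0809 to 0.125 CPM. The summed CPM of 14 adipocyte genes was 380.4 to 461 at day 0, 25709 to 46324 at day 4 and 33489.6 to 34942 at day 8, with Fabp4, the adipocyte fatty acid-binding protein, as the most abundant. The adipokine gene Adipoq, which defines fat cells, had 0, 0.0648 and 0 CPM at day 0 and at least 1252 CPM in every day 8 library, so the day 0 libraries fit their precursor label and the later ones show adipocyte expression. Day 4 replicate 2 stood apart. Its score on the first principal component (75.7% of the variance) was 13.7, against 84.6 and 69.5 in the other day 4 libraries, and its adipocyte sum was 58.1% and its precursor sum 260.3% of the mean of those libraries. Leaving this library out ended no call of a receptor gene in any comparison, and values that moved are given without it as well. In these bulk samples, fewer cells of a type and less RNA per cell cannot be told apart.

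At day 4 against day 0, 8 of the 10 receptor genes rose, 1 fell (Adora2a) and 1 did not pass the test (Npr3), at a threshold of 0.05 on the adjusted p of edgeR's quasi-likelihood test. The background was high: 54.6% of all tested genes were called in this comparison, 28.6% as higher and 26.0% as lower at day 4. At day 8 against day 0, 8 rose and 2 fell (Adora2a and Npr3), against 63.4% of all tested genes called, 33.5% as higher and 29.9% as lower. At day 8 against day 4, 4 rose (Ffar2, Hcar2, Sucnr1 and Gipr), 1 fell (Npr1) and 5 did not pass, against 22.4% of all tested genes, 11.7% as higher and 10.8% as lower. Without day 8 replicate 1 the last count was 3 in place of 5. The median log2 fold change of the members was 6.87, 8.66 and 1.05 in these comparisons, against -0.01, 0.03 and 0.00 over all tested genes. Setting genes at 0 to their lower bound left the medians unchanged. It could not move those against day 0, since Ffar4, Ffar2 and Hcar2 stayed above them at their bounds. The 8.66 lies between the fits of Sucnr1 and Gipr, which had 1 and 4 reads at day 0. Of the 10, 9 exceeded the count filter only at some of the days, so these counts and medians describe the members and support nothing by themselves. Scaling by total counts alone set the median of all genes at -0.34 and -0.33 in the comparisons with day 0, with 35.3% and 37.5% of called genes higher, against 52.4% and 52.9% under TMM, and it changed the direction of no receptor gene.

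**Figure D1:**
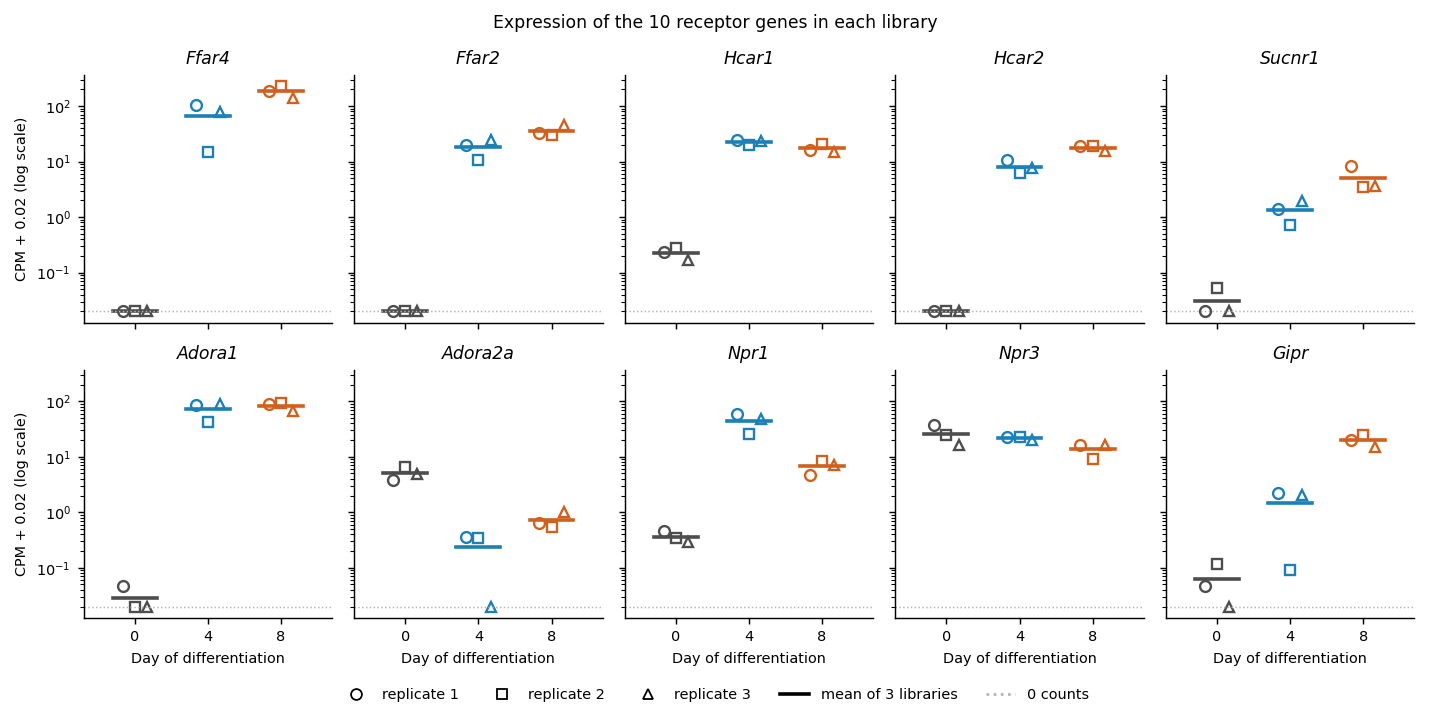
CPM (plus 0.02, log scale) of the 10 receptor genes by day of differentiation, with 1 symbol per library, a bar for the mean of the 3 libraries of a day and a dotted line at 0 counts. The 8 genes that rose had at most 0.431 CPM in any day 0 library, the value of Npr1 in replicate 1. Adora2a is highest at day 0, Npr3 varies least, and Npr1 is highest at day 4.

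FFAR4, also called GPR120, is a receptor for long-chain fatty acids. Its gene, Ffar4 (ENSMUSG00000054200), had no count in any day 0 library. At day 4 it had 104, 14.8 and 79.6 CPM and at day 8 it had 185, 232 and 139 CPM. No day 4 value reached the day 8 range, and in CPM day 4 overlapped Adora1, whose level at that day was 42.6 to 88.0 CPM. Against 3 counts over the day 0 group, it was at least 2244-fold higher at day 4 (adjusted p = 4.57e-05) and at least 6289-fold higher at day 8 (adjusted p = 1.87e-05). The bounds were 1426 and 3997 without day 0 replicate 1, which holds the most reads of that day. Day 8 exceeded day 4 by 1.49 on the log2 scale (SE 0.57), which did not pass the test (adjusted p = 0.0907). That outcome changed with the filter on low counts and with 2 day 4 libraries. With no filter and all libraries kept, the difference was 1.49 with an adjusted p of 0.0062. It was 0.96 (adjusted p = 0.0106) without replicate 2, the library with 14.8 CPM, and 1.97 (adjusted p = 0.0422) without replicate 1.

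FFAR2, or GPR43, binds acetate, propionate and other short-chain fatty acids. Ffar2 (ENSMUSG00000051314) also had no count at day 0, and reached 19.7, 10.7 and 24.1 CPM at day 4 and 32.4, 30.6 and 44.9 CPM at day 8. All day 8 libraries lay above all day 4 libraries. The gene was at least 615-fold higher at day 4 than at day 0 (adjusted p = 2.49e-06) and at least 1219.7-fold higher at day 8 (adjusted p = 1.51e-06), with bounds of 391 and 775 without day 0 replicate 1. Day 8 exceeded day 4 by 0.99 on the log2 scale (SE 0.29, adjusted p = 0.0431). This call was close to the threshold and was lost when any 1 library other than day 4 replicates 2 and 3 was left out, with log2 differences of 0.80 to 1.09 and adjusted p up to 0.123. In a fit of days 8 and 4 alone it was 0.96 with an adjusted p of 0.0608. The other long-chain and short-chain fatty acid receptor genes were near 0: Ffar1 had 1 count over the 9 libraries, and so did Ffar3, the gene next to Ffar2 on chromosome 7.

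Sequences just before the start of 3 genes are shown as examples of 2 patterns over the days: Ffar4 and Ffar2 had no count at day 0, and Npr1 was highest at day 4. They are the 250 bases before the most upstream start that RefSeq gives on build GRCm38.p6, read 5′ to 3′ along the gene. Ffar4 lies on the plus strand at chr19:38096829-38097078, Ffar2 on the minus strand at chr7:30823776-30824025 and Npr1 on the minus strand at chr3:90465867-90466116. Capitals mark matches to the motifs named after the sequences.
Ffar4: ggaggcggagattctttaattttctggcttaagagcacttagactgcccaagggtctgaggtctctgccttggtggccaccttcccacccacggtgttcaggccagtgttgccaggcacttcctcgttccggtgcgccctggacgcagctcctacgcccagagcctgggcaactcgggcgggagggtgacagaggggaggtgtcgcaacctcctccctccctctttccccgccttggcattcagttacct
Ffar2: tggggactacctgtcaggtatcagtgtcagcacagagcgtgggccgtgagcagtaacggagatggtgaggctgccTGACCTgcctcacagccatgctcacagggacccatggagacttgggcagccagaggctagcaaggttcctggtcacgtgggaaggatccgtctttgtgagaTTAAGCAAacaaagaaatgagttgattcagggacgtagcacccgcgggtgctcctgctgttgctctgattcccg
Npr1: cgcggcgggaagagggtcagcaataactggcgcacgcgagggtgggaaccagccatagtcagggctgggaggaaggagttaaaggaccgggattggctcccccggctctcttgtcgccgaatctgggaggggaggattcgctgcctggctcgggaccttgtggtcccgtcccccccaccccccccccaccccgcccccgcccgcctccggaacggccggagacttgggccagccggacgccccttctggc
Searched on both strands were AGGTCA, the core hexamer of nuclear receptors, the direct repeat of that hexamer with 1 base between the copies, which PPARγ binds with its partner RXR, TTGCNNAA, a C/EBP-type site, and TGACGTCA, the cAMP response element. Windows of 300 bases were available for 7 of the 10 receptor genes (11 windows in all), and not for Hcar2, Adora2a and Gipr. Among the receptor genes only Ffar2 held a match: the hexamer in 3 and the C/EBP-type site in 4 of its windows. In the sequence shown they begin 175 and 74 bases before the start. Of all 32851 windows in the RefSeq table, 16.3% held the hexamer and 10.8% the C/EBP-type site, so such matches are common. The direct repeat stood in 0.0396% and the cAMP response element in 1.79% of all windows, and in none of the receptor genes' windows. A match is a description of letters and not evidence of binding.

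HCAR1, or GPR81, is the receptor for lactate, and HCAR2, or GPR109A, the receptor for the ketone body β-hydroxybutyrate and for niacin. Their genes lie side by side on chromosome 5. Hcar1 (ENSMUSG00000049241) had 0.216, 0.259 and 0.148 CPM at day 0, where 5 to 8 reads per library stood behind each value. It reached 24.5, 20.3 and 23.9 CPM at day 4 and 16.3, 20.6 and 15.0 CPM at day 8. Both later days lay far above day 0, and day 8 overlapped day 4. The log2 fold change was 6.76 (SE 0.26, adjusted p = 4.48e-08) for day 4 against day 0 and 6.36 (SE 0.26, adjusted p = 7.32e-08) for day 8 against day 0, while day 8 against day 4 gave -0.41 (SE 0.18, adjusted p = 0.121).

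Hcar2 (ENSMUSG00000045502) had no count at day 0, 10.6, 6.24 and 7.52 CPM at day 4 and 18.8, 18.9 and 15.2 CPM at day 8. Unlike Hcar1, its day 8 values all lay above its day 4 values. It was at least 276-fold higher at day 4 than at day 0 (adjusted p = 1.16e-06) and at least 598-fold higher at day 8 (adjusted p = 6.55e-07), or 175-fold and 380-fold without day 0 replicate 1. Day 8 exceeded day 4 by 1.12 on the log2 scale (SE 0.24, adjusted p = 0.0135). Without day 4 replicate 3 the difference was 1.06 with an adjusted p of 0.0527. Per length of exon, Hcar2 made up 42.5%, 34.4% and 34.9% of the summed Hcar1 and Hcar2 level at day 4, and 66.2%, 61.0% and 63.4% at day 8. The more abundant of the neighbours was thus Hcar1 in every day 4 library and Hcar2 in every day 8 library. This ratio, like the others of paired receptors below, was chosen after the values were seen and was not tested.

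SUCNR1, or GPR91, is the receptor for extracellular succinate, an intermediate of the tricarboxylic acid cycle. Sucnr1 (ENSMUSG00000027762) had 1 read over the day 0 libraries, 33, 19 and 48 reads (1.38, 0.689 and 1.89 CPM) at day 4 and 236, 92 and 103 reads (8.19, 3.47 and 3.61 CPM) at day 8. The days did not overlap. The ratio of pooled levels was 132 for day 4 over day 0 (95% counting interval 23.2 to 5278, adjusted p = 0.000133) and 523 for day 8 over day 0 (interval 93.3 to 20698, adjusted p = 1.21e-05). Those ratios rest on 1 read, in day 0 replicate 2: without that library they were at least 31.2 and at least 120.2, and without day 0 replicate 1 they were 84.1 and 332. Day 8 exceeded day 4 by 1.95 on the log2 scale (SE 0.49, adjusted p = 0.0180). The call needed day 8 replicate 1, the highest library, without which the difference was 1.42 (adjusted p = 0.0815).

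Macrophages also express Sucnr1, Ffar2 and Hcar2. The 12 macrophage markers, led by Lyz2, summed to 46.8 to 104 CPM at day 0, 62.9 to 84.8 CPM at day 4 and 10.3 to 56.0 CPM at day 8, and none of them had 0 counts throughout. Of the 11 tested by edgeR, 1 was higher and 0 lower at day 4 than at day 0, against 28.6% and 26.0% of all tested genes, and 0 were higher and 1 lower at day 8 than at day 0, against 33.5% and 29.9%. At day 8 against day 4, 1 was higher and 2 were lower, against 11.7% and 10.8%. The higher one was Cd68, a lysosomal glycoprotein gene of macrophages, named after its values were seen. It had 3.50, 10.996 and 6.62 CPM at day 8, against 2.09, 2.83 and 2.09 CPM at day 4 (log2 difference 1.59, SE 0.44, adjusted p = 0.0278), and so was higher at day 8 like Sucnr1, Ffar2 and Hcar2. Of the 2 lower ones, C1qa, also named after its values were seen, went the other way. It had 0.278, 1.77 and 1.82 CPM at day 8, against 7.68, 5.37 and 6.69 CPM at day 4 (log2 difference -2.35, SE 0.58, adjusted p = 0.0174). The pan-leukocyte gene Ptprc stayed at or below 0.315 CPM. The 9 lymphocyte markers summed to at most 0.459 CPM in any library, and none passed the count filter. The part of these cells in the receptor levels was not tested.

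ADORA1 is the A1 adenosine receptor, the Gi-coupled brake on lipolysis in fat cells. Adora1 (ENSMUSG00000042429) had 1 read over the day 0 libraries, 86.7, 42.6 and 88.0 CPM at day 4 and 90.6, 93.7 and 66.0 CPM at day 8. It was the second most abundant of these receptors per length at both later days, and days 4 and 8 overlapped. The pooled ratio was 7259 for day 4 over day 0 (95% counting interval 1302 to 286761, adjusted p = 1.32e-07) and 8472 for day 8 over day 0 (interval 1520 to 334669, adjusted p = 1.29e-07). The single day 0 read was in replicate 1, and without that library the ratios were at least 1562 and at least 1799. Day 8 against day 4 gave a log2 difference of 0.20 (SE 0.26, adjusted p = 0.600), and -0.12 (adjusted p = 0.646) without day 4 replicate 2. The exons of Mybph overlap 20.1% of Adora1's exon length on the other strand, and Mybph had 0 to 2 counts per library.

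ADORA2A is the Gs-coupled adenosine receptor, and its gene moved the other way. Adora2a (ENSMUSG00000020178) had 3.80, 6.48 and 4.79 CPM at day 0, 0.334, 0.327 and 0 CPM at day 4 and 0.625, 0.527 and 0.981 CPM at day 8. Every day 0 library lay above every later one. The log2 fold change was -4.48 (SE 0.64, adjusted p = 0.000202) for day 4 against day 0 and -2.81 (SE 0.56, adjusted p = 0.00124) for day 8 against day 0. At day 4 the values rest on 8, 9 and 0 reads, and day 8 against day 4 gave 1.67 (SE 0.67, adjusted p = 0.0944). DESeq2 called that difference, at 1.68 with an adjusted p of 0.0188. Per length, Adora1 made up at most 0.374% of the summed Adora1 and Adora2a level in the day 0 libraries, and 98.6% to 100% at day 4 and 97.3% to 98.9% at day 8. A further Gs-coupled adenosine receptor gene, Adora2b, fell like Adora2a, to 2.34, 4.35 and 2.28 CPM at day 4, against 14.8, 16.0 and 12.5 CPM at day 0 (log2 fold change -2.26, SE 0.32, adjusted p = 0.000167). At day 8 it had 1.15, 1.17 and 2.07 CPM (log2 fold change against day 0 -3.30, SE 0.33, adjusted p = 1.54e-05).

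NPR1 binds atrial and B-type natriuretic peptide and makes cGMP. Npr1 (ENSMUSG00000027931) had 0.431, 0.324 and 0.266 CPM at day 0, 58.6, 25.9 and 47.4 CPM at day 4 and 4.61, 8.32 and 7.22 CPM at day 8. The 3 days did not overlap, and day 4 was the highest. The log2 fold change was 6.98 (SE 0.41, adjusted p = 5.22e-07) for day 4 against day 0, 4.28 (SE 0.40, adjusted p = 8.67e-06) for day 8 against day 0 and -2.71 (SE 0.31, adjusted p = 0.000519) for day 8 against day 4. The last was the 139th lowest of the 14649 tested genes in that comparison. Without day 4 replicate 2 it was -3.04 (adjusted p = 1.90e-05). The antisense gene Gm16048 overlaps 11.7% of Npr1's exon length and had 0 counts in every library.

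NPR3 is the clearance receptor, which internalises natriuretic peptides. Npr3 (ENSMUSG00000022206) was the only receptor gene above the count filter at every day, with 37.1, 24.2 and 16.2 CPM at day 0, 22.8, 23.0 and 20.2 CPM at day 4 and 16.6, 9.0 and 16.1 CPM at day 8. Day 0 had the widest spread, and it overlapped both later days. Day 4 against day 0 gave a log2 fold change of -0.23 (SE 0.30, adjusted p = 0.529), and 0.11 (adjusted p = 0.774) without day 0 replicate 1. Day 8 was lower than day 0 by the test (log2 fold change -0.89, SE 0.30, adjusted p = 0.0226), but the call was lost without day 0 replicate 1 (-0.56, adjusted p = 0.114) and without day 8 replicate 2 (-0.66, adjusted p = 0.0844). Day 8 against day 4 gave -0.66 (SE 0.30, adjusted p = 0.133). Gm5144 overlaps 3.42% of Npr3's exon length on the other strand and had 3 to 18 counts per library.

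Per length, Npr1 made up 2.23%, 2.56% and 3.13% of the summed Npr1 and Npr3 level at day 0, 83.5%, 68.9% and 82.2% at day 4 and 35.3%, 64.5% and 46.8% at day 8. The cyclase receptor was thus the minor transcript of the pair at day 0 and the major one at day 4. At day 8 the pair was mixed, with Npr1 above Npr3 in 1 of 3 libraries.

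**Figure D2:**
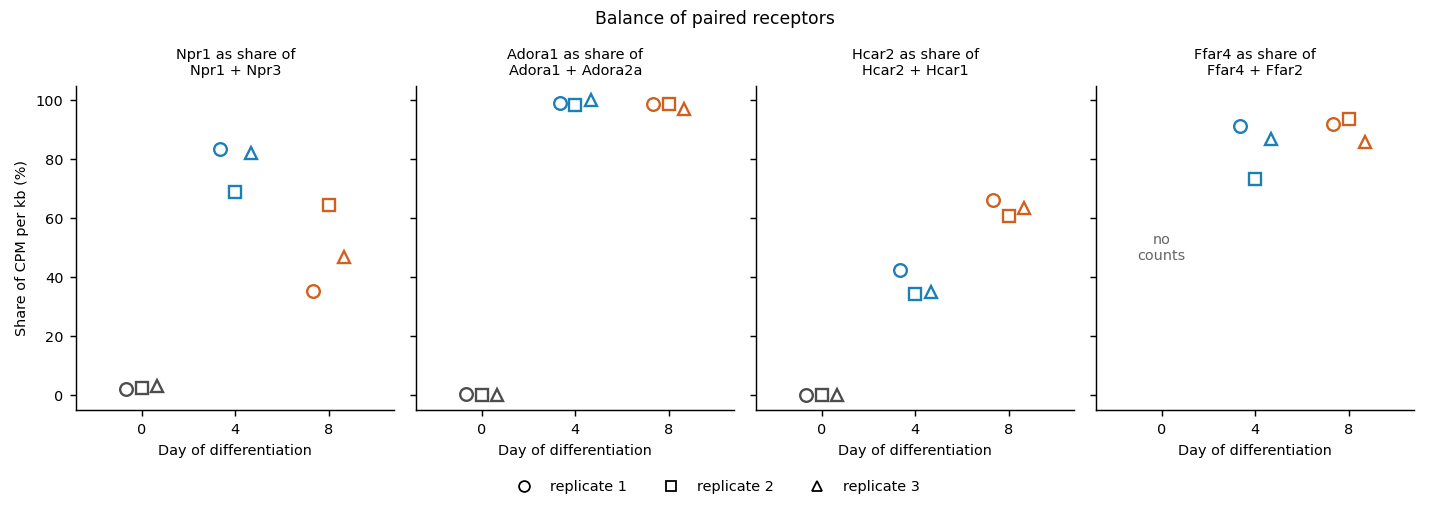
Share of the first gene in the summed CPM per kb of exon of 2 related receptor genes (percent), by day of differentiation, with 1 symbol per library. Npr1 is under 4% of its pair at day 0 and highest at day 4, Adora1 is near 0 at day 0 and at least 97.3% later, Hcar2 passes Hcar1 between day 4 and day 8, and Ffar4 and Ffar2 have no counts at day 0.

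GIPR is the receptor for glucose-dependent insulinotropic polypeptide, a gut hormone released after meals that promotes lipid uptake by fat cells. Gipr (ENSMUSG00000030406) had 1, 3 and 0 reads at day 0, 52, 2 and 52 reads (2.17, 0.0726 and 2.05 CPM) at day 4 and 583, 664 and 423 reads (20.2, 25.0 and 14.8 CPM) at day 8. Day 8 lay far above both other days. Day 4 replicate 2 was within the day 0 range, so days 4 and 0 overlapped. The log2 fold change was 5.02 (SE 1.11, adjusted p = 0.00323) for day 4 against day 0, 8.84 (SE 1.02, adjusted p = 3.59e-05) for day 8 against day 0 and 3.82 (SE 0.69, adjusted p = 0.00456) for day 8 against day 4. The last was the 49th highest of all tested genes in that comparison and the largest among the receptors. Without day 4 replicate 2 it was 3.19 (adjusted p = 0.000102), and day 4 against day 0 was 5.60 (adjusted p = 2.72e-06). The folds against day 0 depend on the 3 reads of day 0 replicate 2. With all libraries the pooled ratios were 35.1 for day 4 (95% counting interval 13.3 to 131) and 506 for day 8 (interval 197 to 1861). Without that library, which left 1 read at day 0, they were 97.7 (interval 17.2 to 3895) and 1411 (interval 253 to 55768). The ratio for day 4 also moved without day 4 replicate 2, to 53.6 (interval 20.3 to 200).

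**Figure D3:**
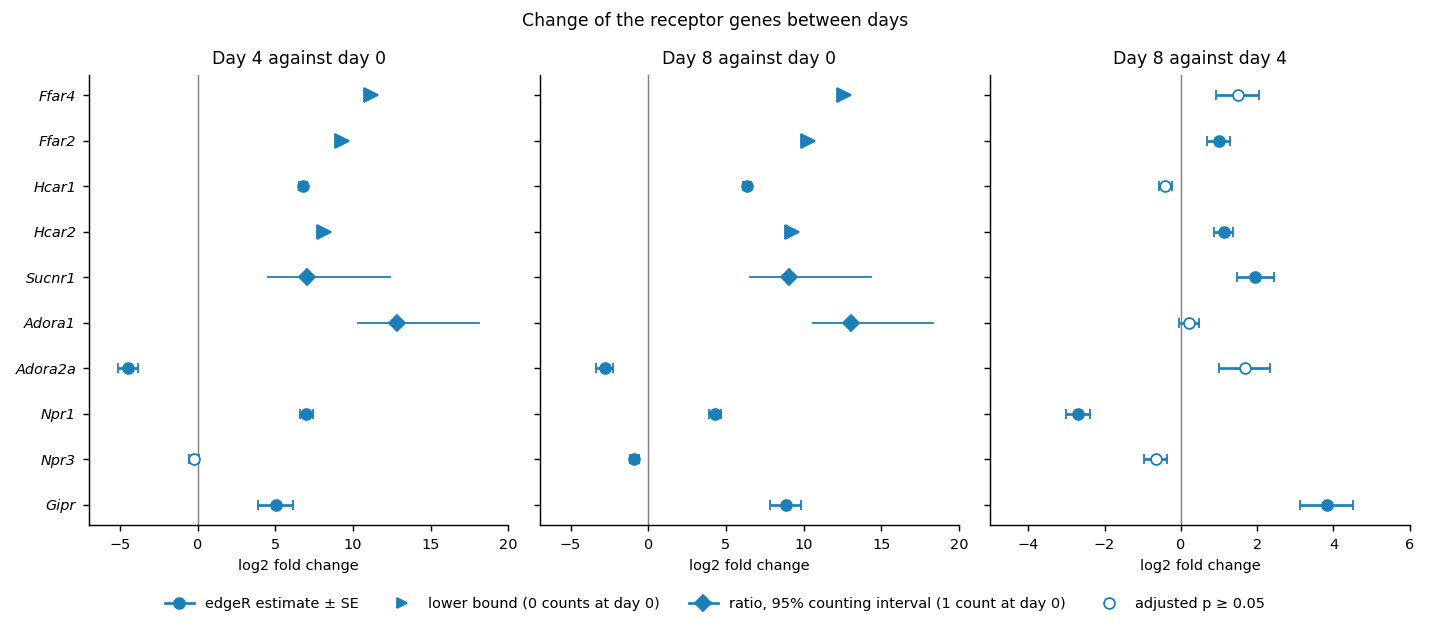
Log2 fold change of each receptor gene, with 1 panel for each of the 3 comparisons between days. Circles are edgeR estimates with their SE, triangles lower bounds for genes with 0 counts at day 0, diamonds ratios with a 95% counting interval for genes with 1 count there, and open symbols comparisons that did not pass the test. In day 8 against day 4, Gipr is farthest to the right at 3.82 and Npr1 farthest to the left at -2.71.

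Receptor levels were set in order by CPM per kb of exon, since a longer gene collects more reads. At day 0 Npr3 (2.75) and Adora2a (1.64) led and overlapped in range, and no other receptor exceeded 0.0902. At day 4 Ffar4 was at 47.2, ahead of Adora1 (12.5), Npr1 (9.19), Hcar1 (6.97), Ffar2 (6.50), Hcar2 (4.21) and Npr3 (2.34). Neighbours in that part of the order overlapped in range, apart from Hcar2 and Npr3, and Ffar4 overlapped Adora1 only through day 4 replicate 2. Sucnr1 (0.804), Gipr (0.411) and Adora2a (0.0719) came last. At day 8 Ffar4 reached 132 and was clear of Adora1 (14.4), which overlapped Ffar2 (12.9). Hcar2 (9.13), Gipr (5.75), Hcar1 (5.26) and Sucnr1 (3.10) followed, then Npr3 (1.48), Npr1 (1.40) and Adora2a (0.232). Hcar2 did not overlap its neighbours there, while Gipr overlapped Hcar1, Hcar1 overlapped Sucnr1, and Npr3 overlapped Npr1. Gipr held the fifth place at day 8, against the ninth at day 4, and Npr1 the ninth place at day 8, against the third at day 4.

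**Figure D4:**
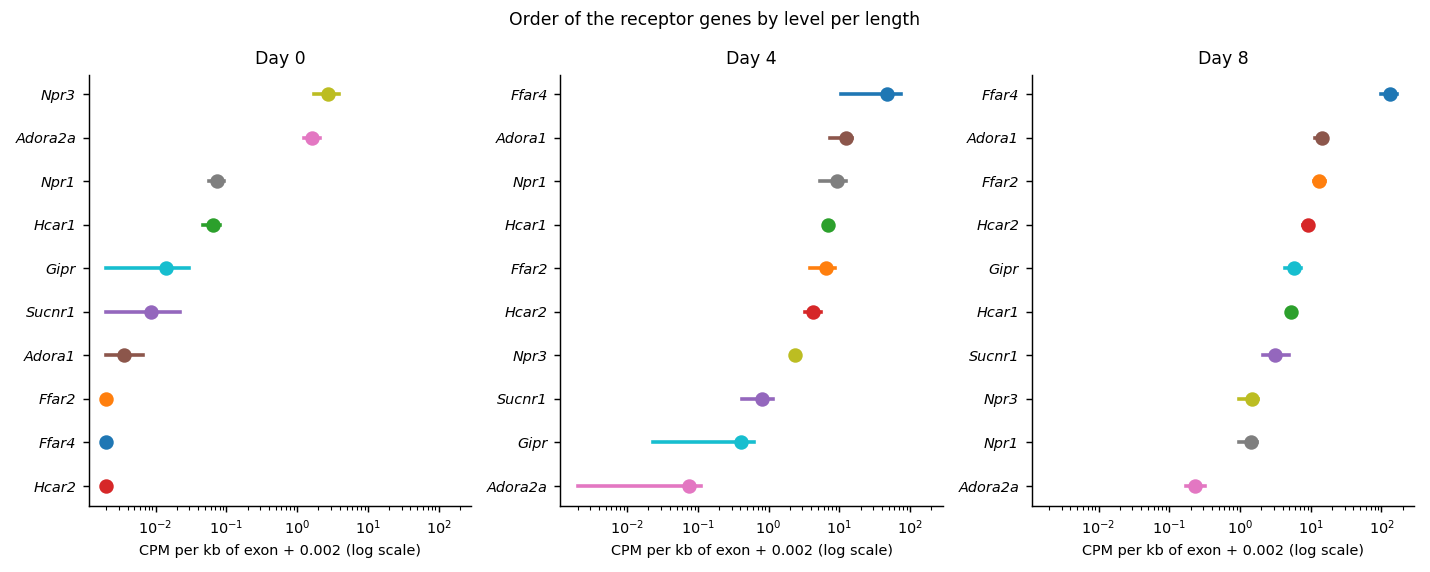
Mean CPM per kb of exon (plus 0.002, log scale) of the 10 receptor genes, ordered from highest to lowest within each day, with a bar from the lowest to the highest library. Npr3 and Adora2a lead at day 0, Ffar4 leads at days 4 and 8, and Npr1 holds the ninth place at day 8, against the third at day 4.

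Each receptor gene was also set against the summed CPM of the 14 adipocyte genes. Fabp4 was the largest part of that sum, with means of 18617 of 38068 CPM at day 4 and 21182 of 34084 CPM at day 8. For each 1000 CPM of the 14 adipocyte genes, Ffar4 had 4.15 to 6.65 CPM at day 8 and 0.576 to 2.25 CPM at day 4. Gipr had 0.443 to 0.716 CPM at day 8 and 0.00282 to 0.0486 CPM at day 4. Npr1 had 0.136 to 0.238 CPM at day 8 and 1.01 to 1.26 CPM at day 4. On this scale days 8 and 4 did not overlap for Ffar4, Ffar2, Hcar2, Sucnr1, Adora2a, Npr1 and Gipr, and overlapped for Hcar1, Adora1 and Npr3. The share of all tested genes without overlap on this scale was not counted, so this describes the members only. Day 4 replicate 2 lay close to the other day 4 libraries for Npr1 and Adora1, and still far below them for Ffar4 and Gipr. The ratio was not tested. Thermogenic genes moved with Gipr, Ffar2, Hcar2 and Sucnr1 from day 4 to day 8: 5 of the 9 were higher and 0 lower, against 11.7% and 10.8% of all tested genes, and their summed CPM was 1609.9 to 2668 at day 8, against 380.4 to 1016 at day 4. Its part in the receptor levels was not tested.

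**Figure D5:**
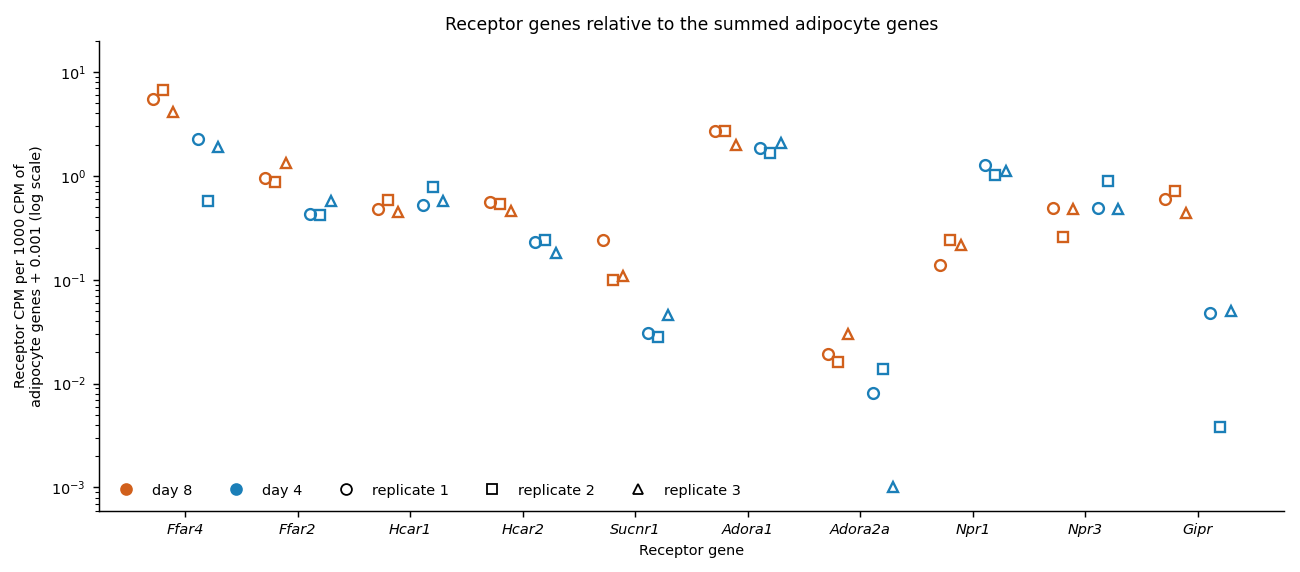
CPM of each receptor gene per 1000 CPM of the summed adipocyte genes (plus 0.001, log scale) at day 8 and day 4, with 1 symbol per library. Gipr at day 8 (0.443 to 0.716) stands highest above its day 4 values, Npr1 is lower at day 8, and Hcar1, Adora1 and Npr3 overlap between the days.

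The other genes of these pathways were read from 7 lists, whose counts are to be read against the background shares above. Each change named from these lists passed edgeR's test, and log2 fold changes are given where only 1 value stands. Of 19 related receptors, 8 were tested. At day 4, 3 were higher and 3 lower than at day 0, and at day 8, 4 were higher and 2 lower. Adrb3 encodes the β3-adrenergic receptor, which drives lipolysis through Gs. It had 183, 71.8 and 164 CPM at day 4, against 1.64, 1.75 and 0.562 CPM at day 0, with no overlap (log2 fold change 6.72, SE 0.48). Lpar1, a receptor for lysophosphatidic acid, fell by 2.33 (SE 0.33) at day 8 against day 0. Several relatives were not detected or nearly so, among them the α-ketoglutarate receptor gene Oxgr1 and Gpr119, both with 0 counts in all libraries.

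Of 24 genes for G proteins and receptor uncoupling, 23 were tested, with 4 higher and 7 lower at day 4 and 10 higher and 6 lower at day 8 than at day 0. Inhibitory G protein subunits split. Gnai1, 1 of the Gi α subunits through which the lactate, ketone and A1 adenosine receptors act, had 66.3, 42.8 and 71.8 CPM at day 4, against 3.32, 2.14 and 2.49 CPM at day 0 (log2 fold change 4.50, SE 0.33). Gnao1, a Go subunit, rose by 2.55 (SE 0.16). Gnai2, the most abundant Gi subunit at each day, fell by 1.22 (SE 0.22, adjusted p = 0.000864). Gnai3, a further Gi subunit, fell by 0.99 (SE 0.21, adjusted p = 0.00282), so of Gnai1, Gnai2 and Gnai3 only Gnai1 rose. Gnai2 and Gnai3 were named after their values were seen. The β-arrestin gene Arrb1, whose product ends G protein signalling, was higher at day 8 than at day 0 by 2.10 (SE 0.13). The receptor kinase gene Grk3 had 1.94, 2.03 and 3.19 CPM at day 8, against 0.0417, 0.109 and 0.158 CPM at day 4 (log2 difference 4.47, SE 0.52, adjusted p = 0.00056).

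On the natriuretic peptide side, 15 of 21 genes were tested, with 3 higher and 6 lower at day 4 and 4 higher and 7 lower at day 8 than at day 0. The peptide genes themselves were nearly silent: Nppa had 0 counts in all libraries, Nppb at most 0.539 CPM and Nppc at most 0.296 CPM. Mme encodes neprilysin, an enzyme that degrades natriuretic peptides. It had 30.8, 23.2 and 14.2 CPM at day 8, against 3.55, 1.38 and 2.64 CPM at day 4 (log2 difference 3.18, SE 0.38, adjusted p = 0.00062). Prkg1, the cGMP-dependent protein kinase, fell by 2.09 (SE 0.37) at day 8 against day 0. Pde3b, which encodes the cAMP phosphodiesterase that insulin activates in fat cells, rose by 5.01 (SE 0.47) at day 8 against day 0.

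Of 17 genes for adenosine supply and removal, 14 were tested, with 4 higher and 5 lower at day 4 and the same numbers at day 8 against day 0. Nt5e, the ecto-enzyme CD73 that makes adenosine from AMP outside the cell, had 7.89, 1.20 and 5.55 CPM at day 4, against 0.189, 0.162 and 0.503 CPM at day 0 (log2 fold change 4.07, SE 0.66). Enpp2, which encodes autotaxin, rose by 8.31 (SE 0.35), whereas Enpp1 and Enpp3, which hydrolyse extracellular nucleotides, fell by 4.24 (SE 0.50) and 2.92 (SE 0.31). The intracellular supply list for lactate, ketones, succinate and short-chain acids had 25 of 27 genes tested, with 21 higher and 1 lower at day 4 and 19 higher and 1 lower at day 8 than at day 0. Many of these are mitochondrial enzymes, such as the succinate dehydrogenase subunits. Slc25a10, the mitochondrial dicarboxylate carrier, which moves succinate, rose by 4.56 (SE 0.28) at day 4.

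Within that list, genes of pyruvate and lactate handling were among the 4 that were higher at day 8 than at day 4. Pdk4, which shuts pyruvate out of oxidation, was higher at day 8 than at day 4 by 2.22 (SE 0.29, adjusted p = 0.00105). Bsg, the chaperone of the lactate transporters, had 8618, 11838 and 7626 CPM at day 8, against 3252, 1247 and 2320 CPM at day 4 (log2 difference 2.04, SE 0.33, adjusted p = 0.00267).

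Of 15 partners of GIPR in incretin signalling and lipid uptake, 11 were tested, with 6 higher and 4 lower at both later days than at day 0. The hormone gene Gip had 1 count over the 9 libraries. Lpl, the lipoprotein lipase that GIP is known to raise in fat cells, rose by 3.17 (SE 0.25) and the fatty acid transporter gene Cd36 by 10.88 (SE 0.64) at day 4 against day 0. Rapgef3, which encodes the cAMP sensor EPAC1, fell by 4.33 (SE 0.83) at day 8 against day 0. Pck1, a gluconeogenic and glyceroneogenic enzyme gene, had 75.2, 54.9 and 56.2 CPM at day 8, against 15.3, 5.77 and 11.1 CPM at day 4 (log2 difference 2.54, SE 0.32, adjusted p = 0.000765). All 19 genes of lipolysis were tested, with 13 higher and 4 lower at day 4 and 14 higher and 4 lower at day 8 than at day 0. Lipe, the hormone-sensitive lipase, rose by 7.62 (SE 0.31) at day 4.

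At day 8 against day 4 the lists moved less, and their counts were unsteady. They were 1 higher and 1 lower for related receptors, 7 and 2 for G proteins and uncoupling, 2 and 2 for natriuretic peptides and cGMP, 0 and 3 for adenosine, 4 and 4 for metabolite supply, 2 and 1 for GIPR partners and 2 and 3 for lipolysis. Leaving out any 1 of 8 libraries, all but day 4 replicate 1, moved at least 1 of these counts by over 1.5 times. The lowest totals were 0, 3, 1, 0, 6, 1 and 1 in the order of the lists. Endothelial and mural cells can also carry Npr1, Npr3 and Gipr. The 10 endothelial markers summed to 15.0 to 19.4 CPM at day 0, 29.6 to 32.7 CPM at day 4 and 12.5 to 19.1 CPM at day 8. Egfl7, the most abundant, averaged 3.62, 25.3 and 13.8 CPM at these days, so the day 4 peak of the sum follows this 1 gene. Of the 6 tested, 1 (Egfl7) was higher and 2 were lower at day 4 than at day 0, against 28.6% and 26.0% of all tested genes. At day 8 against day 0, 1 (Egfl7) was higher and 4 were lower, against 33.5% and 29.9%. At day 8 against day 4, 0 were higher and 1 (Egfl7) was lower, against 11.7% and 10.8%. Egfl7 fell there (log2 difference -0.87, SE 0.25, adjusted p = 0.0313), which is the direction of Npr1 and not of Gipr. The defining endothelial gene Pecam1 stayed at or below 0.771 CPM and Cdh5 at or below 0.809 CPM. The 8 mural markers summed to 828 to 910.0, 102 to 298 and 149 to 163 CPM, most of it Pdgfrb, which precursors share, and Rgs5 had 0 counts in every day 8 library. Cspg4, named after its values were seen, averaged 3.94, 7.13 and 14.7 CPM at days 0, 4 and 8. Of the 5 mural markers tested, Cspg4 was the 1 higher in each comparison. At day 4 against day 0, 1 was lower, against 28.6% of all tested genes higher and 26.0% lower. At day 8 against day 0, 2 were lower, against 33.5% and 29.9%. At day 8 against day 4, 1 was lower, against 11.7% and 10.8%. The part of endothelial and mural cells in the receptor levels was not tested.

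For each receptor gene, the 3 tested genes with the highest Pearson correlation of log2 CPM over the 9 libraries were looked up. The libraries form 3 days, and points of a day share their treatment, so the correlations describe the pattern over days. For Ffar4 these were Cs, Gm37975 and Ciao3 (r of 0.999 each), for Ffar2 Lncbate6, Gm10851 and Lncbate1 (0.998 to 0.999) and for Hcar1 Tmem38b, Adcy5 and Mrap (0.998 to 0.999). Hcar2 was closest to Lctl, Krt79 and Hadhb (all 0.998), Sucnr1 to Tarsl2, Cd83 and Zcrb1 (0.990 to 0.996) and Adora1 to Kcnk3, Cfd and Aqp7 (all 0.999). Npr1 was closest to Slc1a5, Sult1a1 and Kazald1 (0.996 to 0.997), of which Sult1a1 averaged 0.25 CPM at day 0, 125 CPM at day 4 and 10.9 CPM at day 8. Gipr was closest to Egln1, Sdsl and Phf7 (0.992 to 0.994) and Adora2a to Siae, Kcnk2 and Gabbr1 (0.978 to 0.980). Npr3 had no partner above 0.917, the value for Suv39h2, followed by Taf9b and Thap6. Ranked by Spearman's correlation, at most 1 of the 3 stayed among the closest 3 of its receptor.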

How the data were processed

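RNA of 9 libraries was measured by bulk RNA-seq. Per the labels' protocols, cells were lysed with Triton X-100 and cycloheximide, the lysates were spun and RNA was purified from the supernatant, so nuclear RNA can be under-represented; a stranded kit for total RNA was used. The authors deposited raw counts of reads per gene, with no normalization. HISAT2, featureCounts and build GRCm39 are named in the submitters' processing notes; versions, strand setting and annotation release are not given in the sources used here. Reads of overlapping genes on opposite strands may therefore not be told apart.

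The analysis used edgeR 4.0.16 in R 4.3.3: genes kept by filterByExpr (minimum count 10, minimum total 15), TMM scaling, and 1 quasi-likelihood fit of all 9 libraries with no covariates (6 residual degrees of freedom), with two-sided tests adjusted by Benjamini-Hochberg over 14649 genes at a threshold of 0.05. The fit was tested on simulated data. SE is the log2 fold change divided by the square root of F. For a day with no count, a fold is given as a lower bound, taking 3 counts over that group; with 1 to 3 counts, the ratio has an exact 95% interval. Intervals and floors cover counting error only. Fitted folds of such genes depend on the prior count and are not printed. CPM per kb uses the union of exons in GENCODE M21, which is of another build and served for lengths, overlaps and neighbours only. Log2 CPM for correlations used a prior count of 2.

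No pair of libraries of a day was as alike as sampling noise allows (chi-square per degree of freedom 15.5 to 229), so all were kept. The 10 receptor genes and all 18 lists were chosen with earlier results of these data known. The text names the receptor genes, up to 4 called genes per list and comparison with the largest log2 fold change, ligand and partner genes, the most abundant and defining markers, the 3 closest genes of each receptor, and close relatives listed at or near 0; some genes under this rule are not reported here. Alternatives were total-count scaling, no filter, fits of 2 days, a replicate block, DESeq2 1.42.0, another gene length, and leaving out each library.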

Additional observations from a re-analysis of the deposited data

How the results depend on the processing

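Of the 10 receptor genes, edgeR called 9 in day 4 against day 0, 10 in day 8 against day 0 and 5 in day 8 against day 4. DESeq2 called 9, 10 and 6, total-count scaling 9, 10 and 5, no count filter 9, 10 and 6, and a fit of the 2 days compared 8, 10 and 4, where Gipr fell under the filter in day 4 against day 0. Leaving out each library in turn gave 9, 9 to 10 and 3 to 6. Over all genes, the counts were 7998, 9290 and 3285, and ranged from 6613 to 9110, 8323 to 10111 and 1894 to 4185 when a library was left out. In day 8 against day 4 they were 1901 in a fit of those days alone, and DESeq2 gave 4254.

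The numbers of the replicates did not pair the libraries in a uniform way. Deviations of libraries with the same number correlated at -0.126 to 0.273, with 2 of 9 over 0.1. Those of other numbers correlated at -0.224 to 0.188. Between days 0 and 8, however, the same-number pairs (0.273, 0.138 and 0.0859) all stood above the other pairs (-0.180 to 0.0366). Whether the numbers mark shared material was not tested. A replicate block gave 8070, 9368 and 3105 genes and 9, 10 and 5 receptor genes.

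Direction reversed in 2 cases, neither called: Npr3 in day 4 against day 0 ranged from -0.49 to 0.11 when a library was left out (0.11 without day 0 replicate 1), and Adora1 in day 8 against day 4 from -0.12 to 0.37 (-0.12 without day 4 replicate 2). Taking the longest transcript as gene length gave levels within 1 SD of those reported, apart from Npr3 at day 4 (3.19 CPM per kb) and day 8 (2.02), and put Ffar2 (7.88) ahead of Hcar1 (6.97) at day 4. Genes with few reads at day 0 limit the precision of every fold against that day.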
